A study of Arabidopsis thaliana with 4 samples.

Results

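The comparison described here sets hypocotyls of the arf7 mutant grown with the auxin NAA against wild-type hypocotyls grown with the same auxin, by 2 of the 4 libraries of the series. Both libraries came from dark-grown Arabidopsis thaliana seedlings at 4 days, kept on 1/2 MS medium with 500 nM naphthalene acetic acid (NAA), a synthetic auxin. The arf7 NAA library is from a T-DNA insertion mutant of ARF7, and the Col NAA library is from the wild type Col. The other 2 libraries, arf7 mock and Col mock, are the same genotypes at the same age without NAA (0 nM), and they are given beside the NAA pair. The labels give neither the arf7 allele nor how many plants a library pools. Reads were summed per locus and scaled to the library total, as counts per 1000000 (CPM), and 17317 of the 23695 loci with any read were compared, those with a mean of at least 1 CPM over the 4 libraries.

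ARF7, also named NPH4, is an auxin response factor: it binds auxin response elements in promoters and switches genes on once auxin has removed the Aux/IAA repressor proteins bound to it. In the hypocotyl, the embryonic stem, it is known for auxin-driven bending and differential growth, partly together with its close relative ARF19. Genes that auxin switches on quickly include those for SAUR growth proteins, GH3 enzymes that conjugate auxin and the Aux/IAA repressors themselves.

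Each side of the comparison is 1 library, so no test across samples exists and no p-value is given. A locus is described as higher or lower in arf7 NAA when its scaled counts differed at least 2-fold and the exact (Clopper-Pearson) 95% interval of the ratio excluded 1. These intervals cover counting error only, not the spread between plants or preparations. A count of 0 was taken as 3 counts when a fold was formed, which is then written as a bound. In whole hypocotyls fewer cells of a type and less RNA per cell cannot be told apart.

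To the nearest 1000, the libraries held 7202000 uniquely assigned reads in arf7 NAA, 7174000 in Col NAA, 6997000 in arf7 mock and 7407000 in Col mock. The Col NAA library stood apart from the other 3. Across the compared loci its Spearman correlations with them were 0.847 to 0.881, against 0.968 to 0.981 among the other 3, and these values describe loci, not replicates. By a rule chosen after the values were seen, 21 loci had at least 5 CPM in each of the other 3 libraries and at most 3 counts in Col NAA, while no locus had that pattern in arf7 NAA, arf7 mock or Col mock. In the opposite pattern, 60 loci had at least 5 CPM in Col NAA and at most 3 counts in each of the other 3 libraries, against 0 loci in arf7 NAA and 1 each in arf7 mock and Col mock. Since Col NAA is the only wild-type library with NAA, no result below can be given without it, and the part that this library played in the results was not tested.

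ARF7 itself (AT5G20730) had 1 count in arf7 NAA, against 8 counts in Col NAA, and 3 counts in arf7 mock, against 8 counts in Col mock. The counts were lower in both arf7 libraries, but reads covered at most 2.03% of the listed model in the NAA pair, and the locus lay below the filter. The ratio in the NAA pair was 8.03-fold lower in arf7 NAA, with an interval from 1.08 to 356. These few reads give little check of the genotype label. Of the other activating response factors, ARF19 had 709 counts in arf7 NAA and 702 counts in Col NAA, ARF5 had 385 counts in arf7 NAA and 461 in Col NAA, and ARF6 had 31 counts in arf7 NAA and 22 in Col NAA. None of the 3 met the size rule. ARF8 had 1 count in arf7 NAA and 6 counts in Col NAA, below the filter.

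With NAA, 2263 of 17317 loci were higher in arf7 (13.1%) and 2178 were lower (12.6%), 25.6% in all. Without NAA, 480 loci were higher in arf7 mock than in Col mock (2.77%) and 353 were lower (2.04%), 4.81% in all. The NAA pair and the mock pair share no library. At least 4-fold, 663 loci were higher and 1017 lower in the NAA pair, against 73 higher and 83 lower in the mock pair. At least 10-fold, 164 loci were higher and 405 lower in the NAA pair, against 9 higher and 19 lower in the mock pair. The larger differences of the NAA pair therefore lay more often on the lower side.

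**Figure D1:**
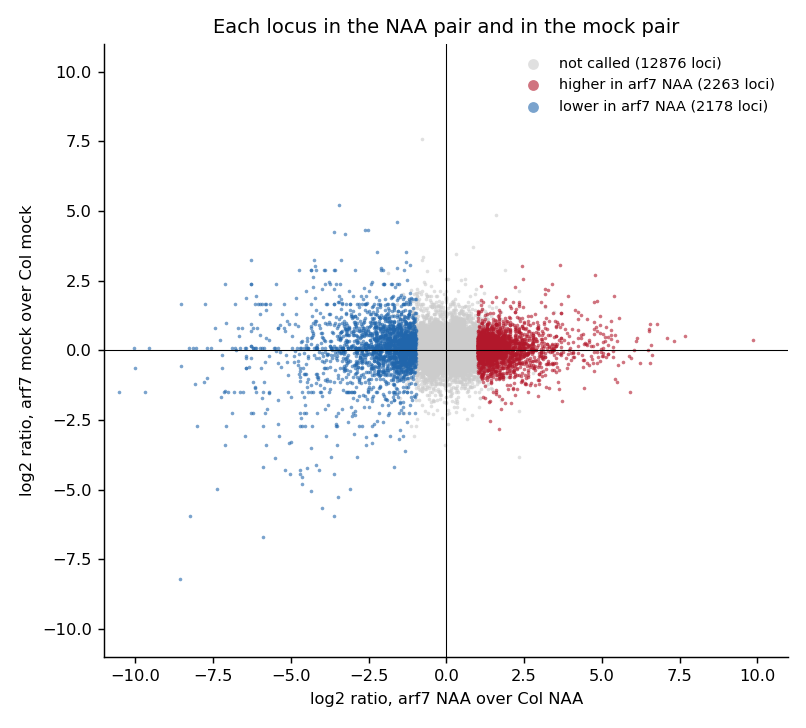
Each point is 1 of the 17317 compared loci, with the log2 ratio of arf7 NAA over Col NAA on the x axis and that of arf7 mock over Col mock on the y axis, 0.5 added to each count. The 2263 higher (red) and 2178 lower (blue) loci of the NAA pair lie mostly near 0 in the mock pair, with a median mock ratio of 0.08 for each of the 2 sets.

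Loci that met the rule in both pairs were counted by direction. Of the loci higher in arf7 NAA, 84 were also higher in arf7 mock (3.71% of the first set and 17.5% of the second) and 54 were lower in arf7 mock. Of the loci lower in arf7 NAA, 140 were also lower in arf7 mock (6.43% and 39.7%) and 149 were higher in arf7 mock. The median log2 ratio in the mock pair was 0.08 over the loci higher in arf7 NAA and 0.08 over the loci lower in arf7 NAA, where the medians in the NAA pair were 1.53 and -1.87. The 2178 lower loci together held 5.56% of the counts in arf7 NAA and 23.1% in Col NAA, against 5.42% in arf7 mock and 6.02% in Col mock. The 2263 higher loci held 19.8% in arf7 NAA and 6.17% in Col NAA, against 20.9% in arf7 mock and 21.8% in Col mock. In both sums arf7 NAA was close to the 2 mock libraries and Col NAA was the one that differed. The choice of the loci in the NAA pair fixes that its 2 libraries differ, but not which of them lies near the mock libraries.

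The authors' deposited table of the same 2 libraries lists 1683 loci higher and 1930 lower in arf7 NAA. In the authors' deposited table and by the size rule, 1672 loci were higher, 1835 were lower and 1 went in opposite directions.

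Among 45 gene families taken from the descriptions in the files, the share of lower members ran from 0.426% to 70.8% and the share of higher members from 0% to 48.1%, beside 12.6% and 13.1% over all loci. The shares of lower members were highest in SAUR genes (70.8%), GH3 enzymes (63.6%), aquaporins (59.3%), class III peroxidases (56%) and expansins (52.4%). Not every auxin or wall family stood there: the median log2 ratio was -0.16 for LBD factors, -0.22 for auxin carriers and 0.04 for cellulose synthase and CSL enzymes, the last of which is -0.06 under TMM scaling and -0.09 under DESeq2 size factors. LEA proteins, oleosins and seed albumins had 41.4% lower members. The shares of higher members were highest in mitochondrion-encoded loci (48.1%), NBS-LRR immune receptors (39.4%), pentatricopeptide repeat proteins (35.3%), wall-associated and cysteine-rich receptor kinases (33.3%) and heat shock proteins (32.5%). Some lower members passed the filter through Col NAA alone. The peroxidase AT1G49570, for example, had 56.9 CPM in Col NAA and at most 0.135 CPM in any other library. Such loci could meet the rule only as lower, so the family shares of lower members depend partly on the filter. With a mean of at least 5 CPM, 10.6% of all loci were lower and 12.7% higher.

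**Figure D2:**
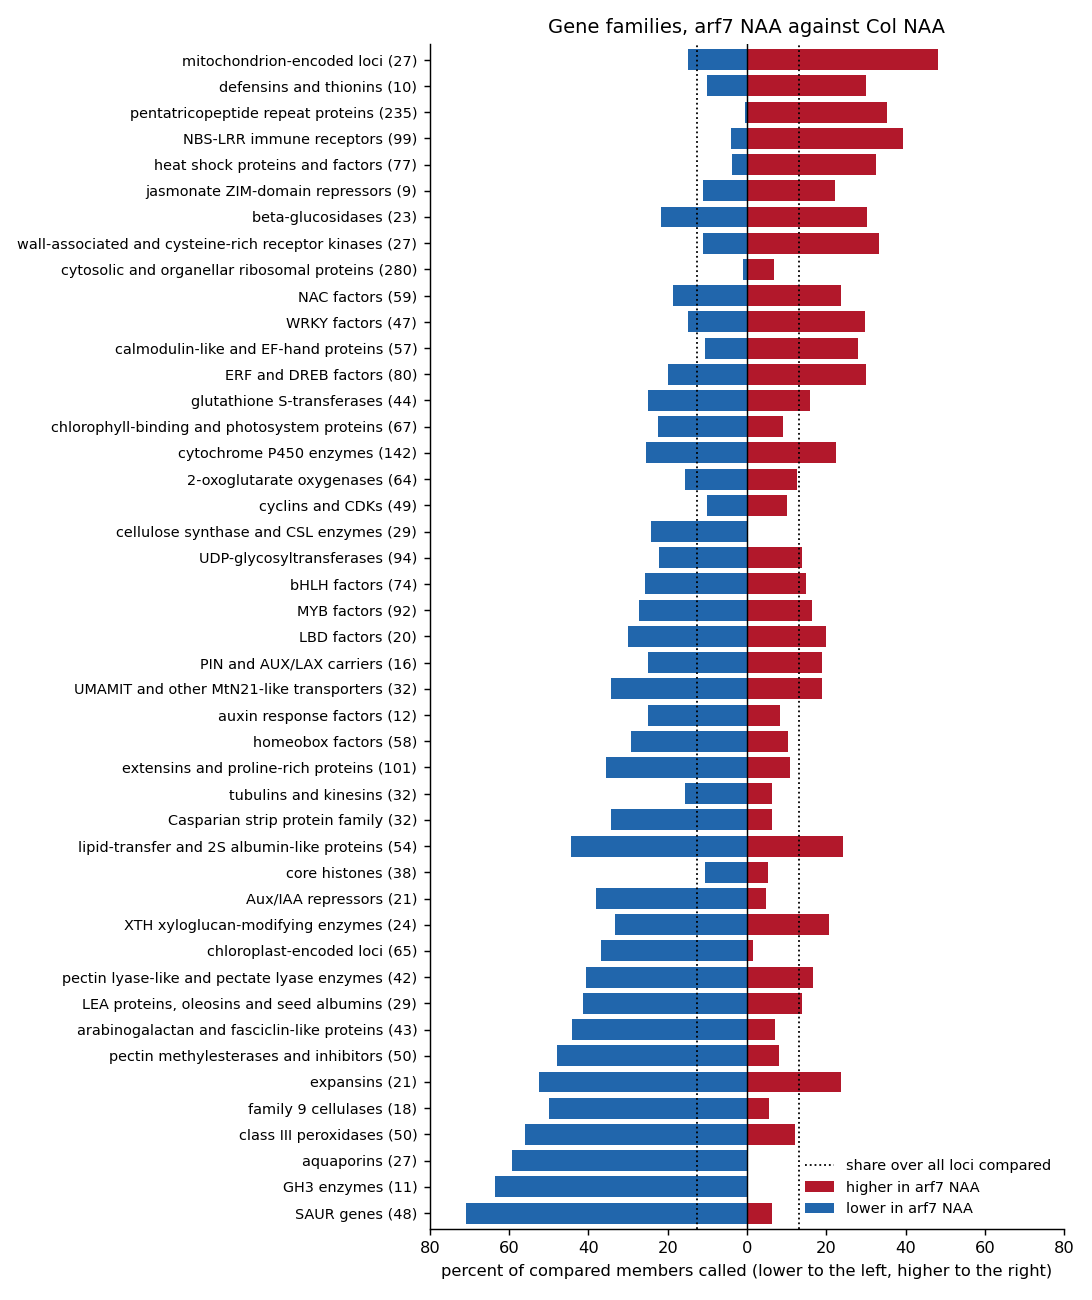
Bars give, for each family (number of compared members in brackets), the percent of members lower (blue, to the left) and higher (red, to the right) in arf7 NAA than in Col NAA, ordered by the median log2 ratio. Dotted lines mark 12.6% lower and 13.1% higher over all 17317 loci; SAUR genes had 70.8% lower and NBS-LRR immune receptors 39.4% higher.

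Among the auxin-response families the SAUR genes had the lowest median. These genes encode short proteins that promote cell expansion. Of 48 compared members, 34 were lower and 3 higher in arf7 NAA, with a median log2 ratio of -2.66, beside 0.13 over all loci. In the mock pair 13 were lower and 0 higher, with a median of -1.11 in the plot of family members. AT4G38860 had 0.555 CPM in arf7 NAA and 26.5 CPM in Col NAA, against 0.143 CPM in arf7 mock and 0.675 CPM in Col mock. It was 47.7-fold lower in arf7 NAA (interval 18.3 to 177). AT5G18050, from a run of near-identical copies on chromosome 5, had 0 counts in arf7 NAA and 75 in Col NAA, so it was at least 25.1-fold lower. The counts are reads assigned to a single model, so reads common to copies this alike may be left out, and their levels are uncertain. The opposite case was AT4G00880, with 28.3 CPM in arf7 NAA and 0.976 CPM in Col NAA, beside 32.3 CPM in arf7 mock and 33.5 CPM in Col mock, 29-fold higher in arf7 NAA (13.8 to 73.1). Summed over the 69 SAUR loci with a read, the level was 325 CPM in arf7 NAA and 588 CPM in Col NAA, against 286 CPM in arf7 mock and 337 CPM in Col mock.

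GH3 enzymes link auxin or related acids to amino acids, which for auxin takes it out of use. Of 11 compared members, 7 were lower and 0 higher in arf7 NAA, with a median log2 ratio of -2.04, and 3 were lower in arf7 mock. Summed over the 17 GH3 loci with a read, the level was 723 CPM in arf7 NAA and 1869 CPM in Col NAA. GH3.2 (AT4G37390) had 21.1 CPM in arf7 NAA and 238 CPM in Col NAA, against 4.86 CPM in each mock library, and was 11.3-fold lower in arf7 NAA (9.56 to 13.4). GH3.5 had 95.4 CPM in arf7 NAA and 753 CPM in Col NAA, against 34.4 CPM in arf7 mock and 278 CPM in Col mock, so it was lower in both arf7 libraries, 7.89-fold with NAA (7.29 to 8.55). GH3.1 had 2.5 CPM in arf7 NAA and 52.1 CPM in Col NAA, and 0.572 CPM in arf7 mock, against 7.16 CPM in Col mock. GH3.3 (AT2G23170) had 346 CPM in arf7 NAA and 374 CPM in Col NAA and did not meet the rule. The log2 ratios of the 11 members ran from -6.45 to 0.18.

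Aux/IAA proteins hold response factors inactive until auxin triggers their breakdown. Of 21 compared members, 8 were lower and 1 higher in arf7 NAA, with a median log2 ratio of -0.54, and 3 were lower in arf7 mock. IAA19, known as a partner of ARF7 in hypocotyl bending, had 22.6 CPM in arf7 NAA and 105 CPM in Col NAA, against 27.6 CPM in arf7 mock and 47 CPM in Col mock, and was 4.65-fold lower in arf7 NAA (3.92 to 5.54). IAA20 had 2 counts in arf7 NAA and 165 in Col NAA, a ratio of 82.8-fold lower with an interval from 22.6 to 690, and 1 and 0 counts in arf7 mock and Col mock. IAA27 (AT4G29080) was the one higher member, with 73.9 CPM in arf7 NAA and 24.4 CPM in Col NAA, 3.03-fold (2.55 to 3.61), beside 93.6 CPM in arf7 mock and 91.3 CPM in Col mock. For IAA20 the high library was Col NAA, and for IAA27 the low library was Col NAA.

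**Figure D3:**
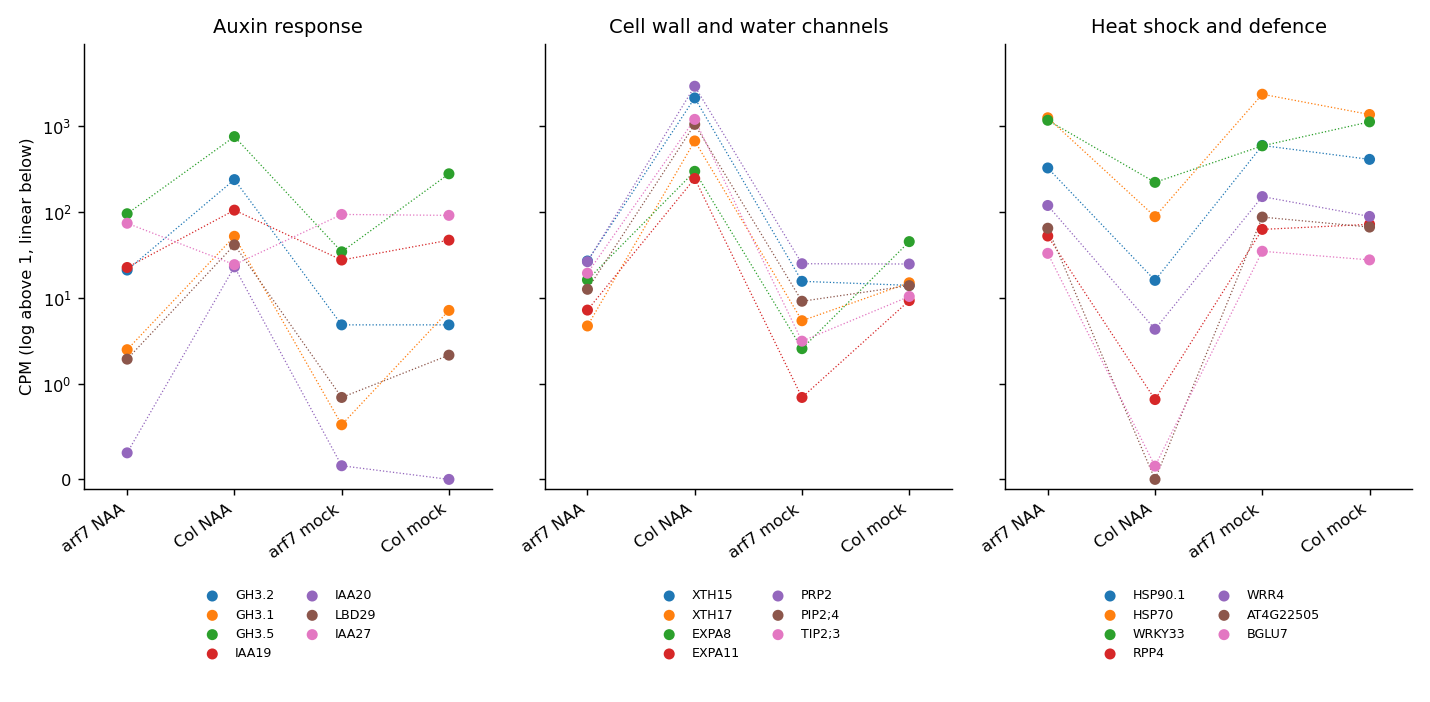
CPM of 21 named loci in the 4 libraries, 1 point a library, with arf7 left of Col in each pair; dotted lines only join the points of a locus. Most auxin-response, wall and water channel loci peak in Col NAA (XTH15 at 2121 CPM, against 26.9 CPM in arf7 NAA). The loci of the heat shock and defence panel are lowest there (RPP4 at 0.836 CPM, against 52.5 CPM in arf7 NAA). That panel also holds the lipid-transfer-like AT4G22505 and the beta-glucosidase BGLU7, which come from other families.

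Other auxin families were mixed. LBD factors include inducers of lateral root formation downstream of ARF7 and ARF19. Of 20 compared members, 6 were lower (30%) and 4 higher (20%) in arf7 NAA, beside 12.6% and 13.1% over all loci. LBD29 had 1.94 CPM in arf7 NAA and 41.4 CPM in Col NAA, against 0.858 CPM in arf7 mock and 2.16 CPM in Col mock, 21.3-fold lower (12.5 to 39.4). LBD18 was 6.84-fold lower (4.31 to 11.4) and LBD16 2.53-fold lower, while LBD11 was 5.62-fold higher (3.16 to 10.7), with 11 CPM in arf7 NAA and 1.95 CPM in Col NAA. Among PIN and AUX/LAX carriers, which move auxin between cells, 4 of 16 were lower and 3 higher, and the influx carrier AUX1 was 2.02-fold lower (1.91 to 2.14). Of 12 response factors, ARF10, ARF16 and ARF17 were lower and ETT (ARF3) was higher, each by less than 3-fold.

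The 250 bases before the listed start of the models are shown for 6 loci, since ARF7 acts through auxin response elements and heat shock genes, many of them higher, have an element of their own. They were read from the RefSeq assembly TAIR10.1, whose 5 nuclear chromosomes have the TAIR10 lengths. Capitals mark the elements TGTCTC and TGTCGG and the heat shock element, which is the units GAA, TTC and GAA with 2 bases of any kind between one unit and the next, each searched on both strands; no 2 sites overlap in these windows. GH3.2 lies downstream of chr4:17579407-17579656 (plus strand), IAA19 of chr3:5263774-5264023 (plus), EXPA8 of chr2:16950558-16950807 (minus), XTH17 of chr1:24256966-24257215 (plus), HSP90.1 of chr5:21352149-21352398 (plus) and HSP70 of chr3:3993793-3994042 (minus), and each is written 5′ to 3′ toward the gene.
GH3.2: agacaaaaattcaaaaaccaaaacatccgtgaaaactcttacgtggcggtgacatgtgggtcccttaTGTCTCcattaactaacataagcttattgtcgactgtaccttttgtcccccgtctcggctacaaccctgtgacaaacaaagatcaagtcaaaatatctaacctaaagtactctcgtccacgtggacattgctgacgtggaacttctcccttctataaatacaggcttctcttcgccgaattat
IAA19: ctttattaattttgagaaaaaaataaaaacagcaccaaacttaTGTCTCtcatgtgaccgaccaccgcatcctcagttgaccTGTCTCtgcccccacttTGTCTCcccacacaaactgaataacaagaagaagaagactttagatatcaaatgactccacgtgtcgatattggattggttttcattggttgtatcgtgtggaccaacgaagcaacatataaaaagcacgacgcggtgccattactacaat
EXPA8: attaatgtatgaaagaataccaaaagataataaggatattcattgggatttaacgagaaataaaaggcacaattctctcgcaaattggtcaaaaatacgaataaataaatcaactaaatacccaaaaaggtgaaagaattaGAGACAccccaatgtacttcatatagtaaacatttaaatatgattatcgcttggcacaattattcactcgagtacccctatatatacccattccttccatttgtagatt
XTH17: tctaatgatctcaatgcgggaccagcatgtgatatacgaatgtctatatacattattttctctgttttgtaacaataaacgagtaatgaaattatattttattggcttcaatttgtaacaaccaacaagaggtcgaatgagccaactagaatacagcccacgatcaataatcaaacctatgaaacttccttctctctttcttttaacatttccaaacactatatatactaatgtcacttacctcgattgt
HSP90.1: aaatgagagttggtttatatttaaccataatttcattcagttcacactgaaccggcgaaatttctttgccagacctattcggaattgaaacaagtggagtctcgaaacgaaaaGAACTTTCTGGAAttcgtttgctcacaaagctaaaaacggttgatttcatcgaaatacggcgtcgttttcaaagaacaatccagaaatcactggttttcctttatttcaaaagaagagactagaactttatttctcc
HSP70: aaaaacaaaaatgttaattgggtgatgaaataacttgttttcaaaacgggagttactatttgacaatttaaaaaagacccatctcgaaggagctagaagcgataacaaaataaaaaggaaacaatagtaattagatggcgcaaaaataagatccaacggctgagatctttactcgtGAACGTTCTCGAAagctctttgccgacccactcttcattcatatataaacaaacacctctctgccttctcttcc
IAA19 held 3 copies of TGTCTC, GH3.2 held 1, EXPA8 held 1 on the other strand (GAGACA as printed), and XTH17 held none. Over all 17224 windows read, 16.4% held TGTCTC or TGTCGG, 12.1% TGTCTC and 4.89% TGTCGG. The share with either was 17.6% among loci lower in arf7 NAA, 17.1% among loci higher and 16.1% among loci that were neither. Either was present in 11 of 21 compared Aux/IAA windows, 5 of 11 GH3 windows, 11 of 48 SAUR windows, 5 of 21 expansin windows and 3 of 24 XTH windows. The heat shock element was present in 12 of 77 windows of the heat shock family, against 0.511% of all windows. A match is a run of letters in a short window, not evidence of binding.

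Xyloglucan-modifying enzymes (XTH) cut and rejoin the tethers between cellulose fibres. Of 24 compared members, 8 were lower and 5 higher in arf7 NAA. XTH15 had 26.9 CPM in arf7 NAA and 2121 CPM in Col NAA, against 15.6 CPM in arf7 mock and 14 CPM in Col mock, and was 78.7-fold lower (68.3 to 91.2). XTH17 (AT1G65310) had 4.72 CPM in arf7 NAA and 670 CPM in Col NAA, against 5.43 CPM in arf7 mock and 15 CPM in Col mock, 142-fold lower (101 to 205). XTH19 was 24.7-fold lower (20.7 to 29.7). In the other direction TCH4, a touch-induced member, had 704 CPM in arf7 NAA and 100 CPM in Col NAA, 7.01-fold higher (6.48 to 7.59), beside 415 CPM in arf7 mock and 627 CPM in Col mock.

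Expansins loosen walls without cutting them. Of 21 compared members, 11 were lower and 5 higher in arf7 NAA, and 3 were lower and 2 higher in arf7 mock. EXPA8 had 16.2 CPM in arf7 NAA and 297 CPM in Col NAA, and 2.57 CPM in arf7 mock, against 45.2 CPM in Col mock, so it was lower in both arf7 libraries, 18.3-fold with NAA (15.2 to 22.2). EXPA11 was 34-fold lower (25.8 to 45.6), with 7.22 CPM in arf7 NAA and 245 CPM in Col NAA. EXPA4 (AT2G39700) was higher, with 664 CPM in arf7 NAA and 209 CPM in Col NAA, 3.17-fold (2.99 to 3.36), at 760 CPM in arf7 mock and 740 CPM in Col mock. Some expansins therefore had their highest level in Col NAA and others their lowest.

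**Figure D4:**
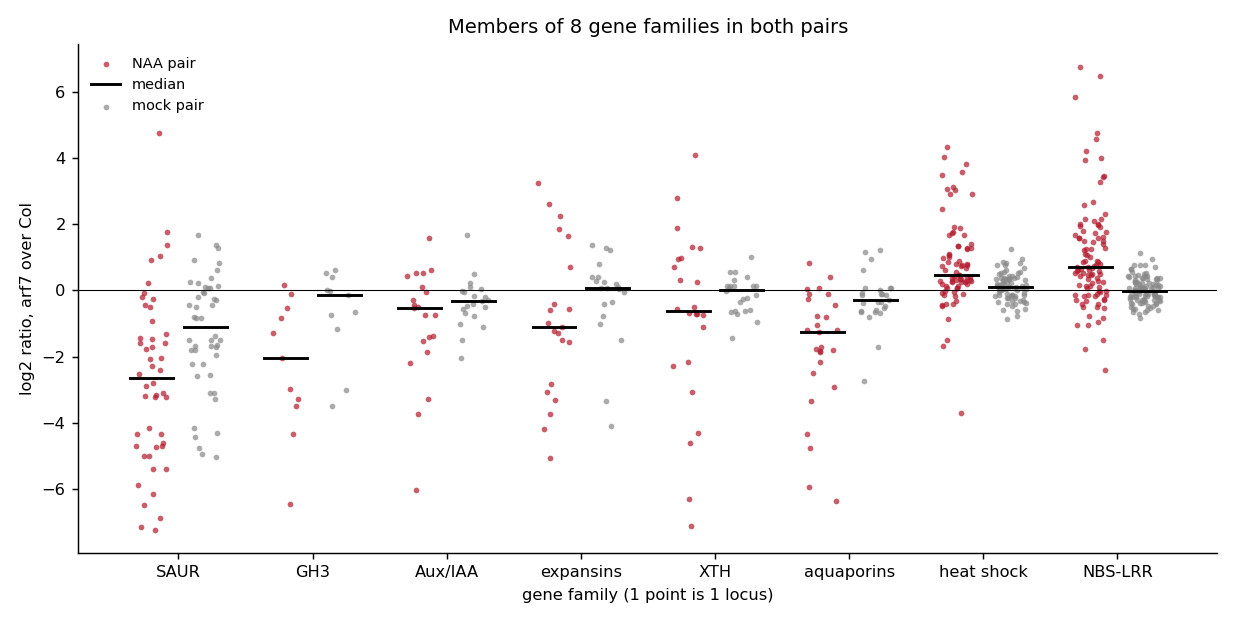
Log2 ratio of arf7 over Col for each compared member of 8 families, in the NAA pair (red, left) and the mock pair (grey, right), with the family median as a bar. SAUR medians are -2.66 and -1.11 in the 2 pairs, and the NBS-LRR median in the NAA pair is 0.70.

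Wall proteins and pectin enzymes were lower in larger shares than the 12.6% of all loci. Pectin methylesterases and their inhibitors, which set how stiff pectin is, had 24 of 50 members lower and 4 higher. PME2 had 3.05 CPM in arf7 NAA and 103 CPM in Col NAA, 33.9-fold lower (22.2 to 54.4), and under 1 CPM in both mock libraries. Pectin lyase-like enzymes had 17 of 42 lower and 7 higher, family 9 cellulases 9 of 18 lower and 1 higher, and arabinogalactan and fasciclin-like proteins 19 of 43 lower and 3 higher. Among extensins and proline-rich proteins, 36 of 101 were lower and 11 higher. Proline-rich protein PRP2 had 26.4 CPM in arf7 NAA and 2901 CPM in Col NAA, against 25 CPM in arf7 mock and 24.8 CPM in Col mock, 110-fold lower (95.3 to 128). AGP4, an arabinogalactan protein, had 65.1 CPM in arf7 NAA and 1932 CPM in Col NAA, 29.7-fold lower (27.1 to 32.6). No cellulose synthase or CSL member of 29 was higher and 7 were lower, of which CSLB02, with 2 counts in arf7 NAA and 246 in Col NAA, had a ratio of 123-fold lower (33.8 to 1025).

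Class III peroxidases cross-link wall polymers. Of 50 compared members, 28 were lower and 6 higher in arf7 NAA, and 2 were lower and 6 higher in arf7 mock. AT5G64100 had 59.4 CPM in arf7 NAA and 757 CPM in Col NAA, against 15.6 CPM in arf7 mock and 9.86 CPM in Col mock, 12.7-fold lower (11.5 to 14.1). AT1G49570 had 0 counts in arf7 NAA and 408 in Col NAA, at least 137-fold lower, with 0 and 1 counts in arf7 mock and Col mock. The Casparian strip family, membrane proteins of which 5 mark the root endodermis, had 11 of 32 lower and 2 higher. CASP5 (AT5G15290) had 2.78 CPM in arf7 NAA and 296 CPM in Col NAA, 107-fold lower (68.9 to 175), and at most 1 CPM in the mock libraries.

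Aquaporins, the water channels of the plasma and vacuole membranes, had 16 of 27 compared members lower and 0 higher in arf7 NAA, and 1 lower in arf7 mock. Summed over the 32 loci with a read, the family stood at 6781 CPM in arf7 NAA and 27144 CPM in Col NAA, against 3116 CPM in arf7 mock and 4443 CPM in Col mock. The vacuole channel TIP1;2 (AT3G26520) made up much of that difference, with 4683 CPM in arf7 NAA and 16322 CPM in Col NAA, 3.49-fold lower (3.44 to 3.53). PIP2;4 of the plasma membrane had 12.6 CPM in arf7 NAA and 1045 CPM in Col NAA, against 9.15 CPM in arf7 mock and 13.9 CPM in Col mock, 82.7-fold lower (67.3 to 103). TIP2;3 was 61.4-fold lower (52 to 73.1) and TIP2;2 27.1-fold lower (24.5 to 30).

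Loci known from growth and development were named among several families. PRE1 and PRE6 (KDR) are atypical bHLH proteins that promote cell elongation. PRE6 had 2.22 CPM in arf7 NAA and 104 CPM in Col NAA, and 1 CPM in arf7 mock, against 15.4 CPM in Col mock, 47-fold lower with NAA (28.7 to 82.6). PRE1 had 0 counts in arf7 NAA and 83 in Col NAA, at least 27.8-fold lower, and 0 counts in arf7 mock, against 16 in Col mock. HEC2, a bHLH factor known from flower and meristem development, had 0 counts in arf7 NAA and 518 in Col NAA, at least 173-fold lower, and 1 and 2 counts in arf7 mock and Col mock. HLS1, required for the apical hook of dark-grown seedlings, had 0.555 CPM in arf7 NAA and 27.7 CPM in Col NAA, against 2 CPM in arf7 mock and 2.03 CPM in Col mock, 49.9-fold lower. By transcription factor family, 11 of 74 bHLH members were higher (14.9%) and 19 lower (25.7%). MYB members had 15 of 92 higher (16.3%) and 25 lower (27.2%), and homeobox members 6 of 58 higher (10.3%) and 17 lower (29.3%). NAC members had 14 of 59 higher (23.7%) and 11 lower (18.6%). Over all loci 13.1% were higher and 12.6% lower, so the higher shares of bHLH, MYB and homeobox members lay near that of all loci. GA20OX1 (AT4G25420), a gibberellin synthesis enzyme, had 1 count in arf7 NAA and 88 in Col NAA, a ratio of 88.3-fold lower (15.4 to 3528), and 0 counts in arf7 mock, against 54 in Col mock.

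On the higher side, NBS-LRR immune receptors, which sense pathogen proteins inside the cell, had 39 of 99 compared members higher (39.4%, beside 13.1% of all loci) and 4 lower in arf7 NAA. In the mock pair 1 was higher and 0 lower. RPP4 had 52.5 CPM in arf7 NAA and 0.836 CPM in Col NAA, against 62.7 CPM in arf7 mock and 71.8 CPM in Col mock, 62.8-fold higher (28.6 to 172). WRR4 had 119 CPM in arf7 NAA and 4.32 CPM in Col NAA, against 151 CPM in arf7 mock and 88.7 CPM in Col mock, 27.5-fold higher (19.3 to 40.8). For both, the 3 other libraries lay together and Col NAA lay far below. Receptors of this class occur in clusters of related copies that can share reads, so values of single members are uncertain. Wall-associated and cysteine-rich receptor kinases had 9 of 27 higher and 3 lower, with CRK10 6.77-fold higher (6.06 to 7.58). Their median log2 ratio was 0.33, and -0.01 when the filter used the NAA pair only.

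Heat shock proteins and factors, chaperones and their regulators, had 25 of 77 compared members higher and 3 lower in arf7 NAA, and 1 higher and 0 lower in arf7 mock. HSP70 (AT3G12580) had 1247 CPM in arf7 NAA and 88.2 CPM in Col NAA, against 2343 CPM in arf7 mock and 1361 CPM in Col mock, 14.1-fold higher (13 to 15.3). HSP90.1 (AT5G52640) had 325 CPM in arf7 NAA and 16 CPM in Col NAA, against 594 CPM in arf7 mock and 409 CPM in Col mock, 20.3-fold higher (16.8 to 24.7). Among stress-linked factors, WRKY members had 14 of 47 higher and 7 lower, ERF and DREB members 24 of 80 higher and 16 lower, and calmodulin-like and EF-hand calcium sensors 16 of 57 higher and 6 lower. In arf7 mock, 1 WRKY member was higher and 1 lower. ERF and DREB members had 3 higher and 9 lower there (11.2% lower, beside 2.04% of all loci). The calcium sensors had 1 higher and 4 lower (7.02%) in arf7 mock. WRKY33, a defence regulator, had 1166 CPM in arf7 NAA and 221 CPM in Col NAA, against 588 CPM in arf7 mock and 1118 CPM in Col mock, 5.26-fold higher (4.99 to 5.56). Of 9 compared jasmonate ZIM-domain repressors 2 were higher and 1 lower, with a median of 0.44, or -0.28 over transcript models as deposited. The 2 higher members were JAZ8, 7.24-fold (3.84 to 15.1), and JAZ5, 4-fold (3.13 to 5.16).

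Metabolic enzyme families had members in both directions. Cytochrome P450 enzymes had 32 of 142 members higher (22.5%) and 36 lower (25.4%), beside 13.1% and 12.6% over all loci. UDP-glycosyltransferases had 13 of 94 higher (13.8%, near the share of all loci) and 21 lower (22.3%). CYP81F4, an indole glucosinolate enzyme, had 216 CPM in arf7 NAA and 5.16 CPM in Col NAA, 41.8-fold higher (30.2 to 59.6), from reads that covered 16.7% of its model. PYK10 (AT3G09260), the beta-glucosidase of ER bodies, had the largest difference in CPM of all loci, with 25020 CPM in arf7 NAA and 7314 CPM in Col NAA, against 33198 CPM in arf7 mock and 39667 CPM in Col mock, 3.42-fold higher (3.39 to 3.45). Lipid-transfer and 2S albumin-like proteins had 13 of 54 higher and 24 lower. Their member AT4G22505 had 466 counts in arf7 NAA and 0 in Col NAA, at least 155-fold higher, and 610 and 494 counts in arf7 mock and Col mock. The lowest ratio of all compared loci over 10 CPM was that of AT5G44440, a berberine-bridge-like oxidase, with 0.555 CPM in arf7 NAA and 931 CPM in Col NAA, 1676-fold lower (654 to 6155), and at most 4 counts in each mock library.

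Pentatricopeptide repeat proteins, which bind and process RNA of chloroplasts and mitochondria, had 83 of 235 compared members higher and 1 lower in arf7 NAA, and 7 higher and 1 lower in arf7 mock. Among members with a mean of at least 5 CPM over the NAA pair the largest ratio was that of AT3G50420, with 8.61 CPM in arf7 NAA and 1.67 CPM in Col NAA, 5.15-fold higher (2.75 to 10.5). The median log2 ratio of the family was 0.77. This family was added after the values were seen. Ribosomal proteins had 19 of 280 higher (6.79%) and 3 lower (1.07%), below the 13.1% and 12.6% of all loci.

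Transcripts of the organelles moved in both directions. Mitochondrial loci took up 0.0915% of the counts in arf7 NAA and 0.704% in Col NAA, against 0.102% in arf7 mock and 0.0808% in Col mock. The 26S ribosomal RNA RRN26 accounted for most of this, with 408 CPM in arf7 NAA and 5108 CPM in Col NAA, against 487 CPM in arf7 mock and 317 CPM in Col mock, 12.5-fold lower (12 to 13). The 18S ribosomal RNA RRN18 was 6.01-fold lower (5.72 to 6.31). Of 27 mitochondrial loci 13 were higher and 4 lower, with COX1 2.65-fold higher (1.71 to 4.21). Of 65 chloroplast loci 1 was higher and 24 lower, with the photosystem I gene PSAB 6.27-fold lower (4.78 to 8.33).

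Nuclear photosynthesis genes were mixed, with 15 of 67 lower (22.4%) and 6 higher (8.96%), beside 12.6% and 13.1% over all loci. The early light-induced protein ELIP2 had 1.39 CPM in arf7 NAA and 127 CPM in Col NAA, 91.1-fold lower (49.3 to 191), but 2.14 CPM in arf7 mock, above 0.54 CPM in Col mock. LHCB2.1, an antenna protein, had 8.19 CPM in arf7 NAA and 101 CPM in Col NAA, and 9.86 CPM in arf7 mock, against 216 CPM in Col mock, 12.3-fold lower with NAA (9.43 to 16.3). Here both arf7 libraries lay below both Col libraries. Members of the LHCB1 and LHCB2 groups are near-identical in sequence, so reads common to them may be left out, and their levels are uncertain. PORA, which makes chlorophyll precursor in light, had 0 counts in arf7 NAA and 373 in Col NAA, at least 125-fold lower, and 0 counts in both mock libraries, from reads on 6.52% of its model.

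Marker genes were listed for 9 tissues or organs, and some of the lists differed in the NAA pair while others did not. The stem and shoot marker KNAT1 had 1940 counts in arf7 NAA and 1493 in Col NAA, and the 7 xylem markers summed to 312 CPM in arf7 NAA and 263 CPM in Col NAA. None of these 8 met the rule in the NAA pair. Of 11 compared root and root hair markers 9 were lower and 0 higher in arf7 NAA, and the set of 14 summed to 91.2 CPM in arf7 NAA and 380 CPM in Col NAA, against 14.1 CPM in arf7 mock and 13.5 CPM in Col mock. None of these 14 was at 0 in an NAA library, while 5 were at 0 in arf7 mock and 2 in Col mock. Below the filter, EXPA7 had 12 counts in each NAA library. RSL4 had 9 counts in arf7 NAA and 6 in Col NAA, and GL2 had 1 and 4. EXPA18 and RHD6 had 8 counts each in arf7 NAA, against 20 and 30 in Col NAA, and at most 2 in a mock library. PRP1 had 2.92 CPM in arf7 NAA and 7.53 CPM in Col NAA, and 0 counts in both mock libraries. EXPA18, RHD6 and PRP1 passed the filter largely through Col NAA, so the number of lower root markers depends partly on the filter. Of 7 compared endodermis markers the 5 CASP genes were lower. SCR, with 99.7 CPM in arf7 NAA and 149 CPM in Col NAA, and MYB36, with 24.9 CPM and 35 CPM, did not meet the rule. ESB1, below the filter, had 4 counts in arf7 NAA and 2 in Col NAA. The set of 8 summed to 156 CPM in arf7 NAA and 1010 CPM in Col NAA, against 121 CPM in arf7 mock and 136 CPM in Col mock. Of 5 epidermis markers 3 were lower and 0 higher, and the set summed to 621 CPM in arf7 NAA and 2713 CPM in Col NAA. PDF1 was 9.89-fold lower, with 163 CPM in arf7 NAA and 1609 CPM in Col NAA, FDH was 3.33-fold and CER6 (AT1G68530) 2.41-fold lower, while LTP1 had 919 counts in arf7 NAA and 459 in Col NAA and did not meet the rule. Of 4 compared phloem markers 2 were higher and 0 lower. SEOR1 had 1899 counts in arf7 NAA and 626 in Col NAA, and SEOR2 had 2087 counts in arf7 NAA and 683 in Col NAA. SUC2, with 1192 counts in arf7 NAA and 1238 in Col NAA, and PP2-A1, with 509 counts in arf7 NAA and 349 in Col NAA, did not meet the rule. Of the 6 shoot apex markers, WUS and CLV3 had at most 1 count in any library, and none met the rule. Seed and embryo markers were scarce, with the 7 listed genes summing to 2.78 CPM in arf7 NAA and 10.9 CPM in Col NAA. The 5 genes listed for hypocotyl growth (HLS1, PRE1, PRE6, EXPA8 and XTH17) were all lower in arf7 NAA and 4 of them in arf7 mock, and summed to 23.7 CPM in arf7 NAA and 1111 CPM in Col NAA, against 11 CPM in arf7 mock and 79.8 CPM in Col mock. That list was chosen with these values known. Of the 4 compared leaf markers LHCB1.1 and LHCB2.1 were lower, while the 5 listed summed to 1185 CPM in arf7 NAA and 1081 CPM in Col NAA. The wall, Casparian strip and peroxidase families above hold several of these markers, and the part of tissue makeup in their values was not tested.

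**Figure D5:**
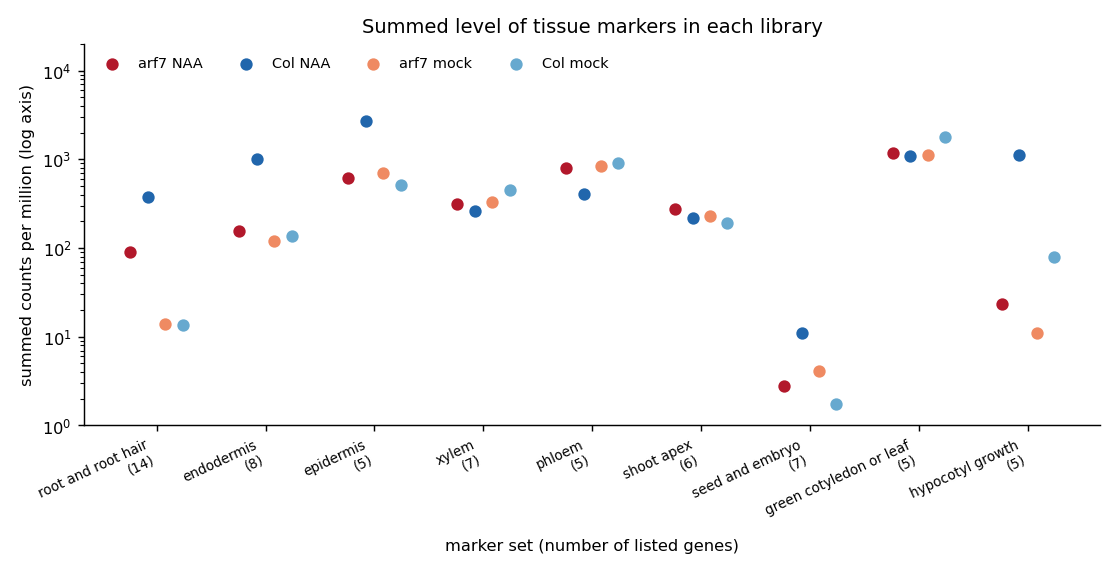
Summed CPM (log axis) of the listed markers of 9 tissues or organs in each library, arf7 left of Col within each pair, with the number of listed genes in brackets. Root and root hair markers sum to 91.2 CPM in arf7 NAA and 380 CPM in Col NAA, and xylem markers to 312 CPM in arf7 NAA and 263 CPM in Col NAA.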

How the data were processed

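Per the labels' protocols, hypocotyl RNA was purified with column kits, cDNA was primed at random and reads came from an Illumina machine. Per the file headers, the deposited counts are reads assigned to a single transcript model, and the authors also deposited RPKM, the model length in bases (another value) and the percent of each model covered. The genome build is TAIR10 per the submitters' processing notes. Aligner, counting tool and strandedness are not given in the sources used here. Coverage had a median of 81.8% for models of the 20314 loci with 1 listed model and 6.37% for those of the 3381 loci with more, so levels of multi-model loci are probably understated in all libraries. Models absent from a file were taken as 0 counts.

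Counts were summed per locus, scaled to the library total and compared by the size rule given in the report (at least 2-fold, exact 95% interval excluding 1, mean of at least 1 CPM over the 4 libraries), with log2 ratios after adding 0.5 counts. The rule was tested on simulated data. No reads of unnamed features are listed. The authors' deposited table of the same pair gives a log2 ratio and an FDR, a form of q-value, per model, filtered at an absolute log2 ratio of 1.00 and an FDR of 0.001, and it was used for the counts credited to it; 3 further tables and 16 per-sample columns in such tables were not used. TMM factors came from edgeR 4.0.16 and size factors from DESeq2 1.42.0, in R 4.3.3; ratios were computed with scipy 1.17.1 in Python 3.11.15. Promoter windows came from TAIR10.1, where 99.5% of models lay within the gene of the same name widened by 500 bases.

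Loci named are, per family, up to 4 members with the largest ratio at a mean of at least 5 CPM over the NAA pair, the 12 highest and 12 lowest loci at a mean of at least 10 CPM over the 4 libraries, the activating ARFs, and the 6 largest differences in CPM; others (such as AT4G00880, GH3.3, LBD16, EXPA4, TCH4 and the markers) were chosen after their values were seen or are listed markers. Members, families and marker lists were chosen with earlier results of these data known, and the exact description patterns of the families, with the pentatricopeptide repeat family, were set after the values were seen.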

Additional observations from a re-analysis of the deposited data

Results flagged for a closer look

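Among the 192 loci named by rule, 8 met the size rule in opposite directions in the NAA pair and in the mock pair. Each pair is 1 library a side, so the difference between the pairs was not tested. Lower in arf7 NAA and higher in arf7 mock were ELIP2 (log2 ratio -6.44 with NAA and 1.87 with mock), ELIP1 (-6.17 and 1.67), the cellulase CEL2 (-5.80 and 1.45), the arabinogalactan protein AGP22 (-5.29 and 1.30), the homeobox factor WOX1 (-4.24 and 1.87) and the chloroplast genes PETB (-2.17 and 1.21) and PSBB (-1.87 and 1.05). Their counts in the mock pair differed: ELIP2 and WOX1 each had 15 counts in arf7 mock and 4 in Col mock, whereas PSBB had 145 counts in arf7 mock and 74 in Col mock. Of the 8, only the linker histone HIS1-3 had the reverse pattern, with 2.55 with NAA and -0.99 with mock, from reads on 13.9% of its model. Over all compared loci, 54 were higher in arf7 NAA and lower in arf7 mock, and 149 were the other way round. The 54 included ERF104, with 501 CPM in arf7 NAA and 85.7 CPM in Col NAA, against 151 CPM in arf7 mock and 343 CPM in Col mock.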

How the results depend on the processing

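Between 1840 and 2343 loci were higher and between 2021 and 2563 lower in arf7 NAA under TMM factors, DESeq2 size factors, no filter, a filter on the NAA pair only, nuclear totals, loci with 1 listed model or transcript models as deposited. A fold of at least 3 left 1079 higher and 1376 lower loci, and 326 in the mock pair. A mean of at least 5 CPM left 1333 lower loci (1609 higher), and 407 in the mock pair, where fewer loci (12633) are compared. Scaling moved all ratios by -0.10 (TMM) or -0.13 (DESeq2) on the log2 scale, which made 44.4% and 42.8% of the differing loci higher ones, against 51% by library totals. The 192 loci named by rule kept their direction under the 9 alternatives run for them, and their call under 8 of these, among the loci that each alternative compares. The filters, the restriction to 1 listed model and the fold leave a ratio unchanged by construction, and the other alternatives moved no ratio by more than 0.13. Most of the loci were named for large ratios, so their direction was largely fixed in advance. At a fold of at least 3, chosen for single loci after the values were seen, 21 of them no longer met the rule, among them ARF10, ARF16, ARF17, ETT, AUX1, WAKL2 and COX1. Family medians moved by 0.25 or more in at most 9 of 45 families under any one alternative, that of at least 5 CPM. The largest move of a family median was 2.41 on the log2 scale under that filter and 1.21 without a filter. Under some alternative 11 family medians changed sign. Those of cytochrome P450 enzymes, cellulose synthases, 2-oxoglutarate oxygenases and cyclins, within 0.10 of 0, did so under TMM (-0.01 to -0.06). Others further from 0 were defensins (-0.40 without a filter, against 0.81), jasmonate repressors (-0.28 over transcript models, against 0.44), beta-glucosidases (-0.05 without a filter, against 0.34), wall-associated and cysteine-rich kinases (-0.01 with the NAA pair filter, against 0.33), NAC factors (-0.11 above 5 CPM, against 0.25), WRKY factors (-0.01 without a filter, against 0.22) and LEA proteins and oleosins (0.37 above 5 CPM, against -0.78). No paired analysis was possible because each group is 1 library. For the same reason no library could be left out, and low loci rest on counting intervals alone.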

Other observations

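By a rule chosen after the values were seen, 13 loci averaging 5 CPM or more were at least 8-fold apart in the same direction in both pairs. They include the beta-galactosidase-related AT4G29200, with 2 counts in arf7 NAA and 954 in Col NAA, and 2 counts in arf7 mock, against 790 in Col mock. The galactinol synthase GolS3 had 0 counts in both arf7 libraries, against 149 in Col NAA and 32 in Col mock. PKS4, a phototropism gene, had 1 count in arf7 NAA and 207 in Col NAA, and 3 counts in arf7 mock, against 38 in Col mock. The B-box factor AT4G27310 had 42 counts in arf7 NAA and 949 in Col NAA, and 7 counts in arf7 mock, against 150 in Col mock. The 1 locus of the 13 that was higher in both arf7 libraries was the transposable element gene AT5G35935, with 319 counts in arf7 NAA and 25 in Col NAA, and 331 counts in arf7 mock, against 42 in Col mock.

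The 21 loci near 0 in Col NAA only lay on all 5 nuclear chromosomes and included 3 neighbouring lipid-transfer-like loci on chromosome 4: AT4G22485 had 721 counts in arf7 NAA and 3 in Col NAA, AT4G22505 had 466 in arf7 NAA and 0 in Col NAA, and AT4G22513 had 44 in arf7 NAA and 0 in Col NAA. The beta-glucosidase BGLU7 had 238 counts in arf7 NAA and 1 in Col NAA, and 244 and 205 in arf7 mock and Col mock. The 60 loci with reads almost only in Col NAA included the ethylene synthesis gene ACS5, with 2 counts in arf7 NAA and 186 in Col NAA, and 0 and 2 counts in arf7 mock and Col mock. The growth-regulating factor GRF7 had 3 counts in arf7 NAA and 482 in Col NAA, and the oleosin OLEO3 had 1 count in arf7 NAA and 261 in Col NAA.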
